A study of Mus musculus with 18 samples.

Results

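The loci described here are the mouse liver transcripts that carried only a placeholder symbol in the count tables: Gm or LOC followed by digits, the names of predicted gene models, or a name ending in Rik, which marks a RIKEN full-length cDNA clone. The rule used symbols and gene IDs and no measured value. It found 9817 loci under 9574 symbols among the 31099 loci with a gene ID, of which 2918 were Gm, 1596 LOC and 5303 Rik loci. RefSeq's table for GRCm38.p6 had an entry for 5667 of them.

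Polyadenylated liver RNA was sequenced from 18 libraries in 6 groups of 3, crossing 2 genotypes with 3 diets. Wild-type mice (Ppara+/+, WT) and Ppara-null mice (Ppara-/-, KO) were 8 weeks old and of a mixed C57BL/6 and SV129 background. For 48 hours each genotype ate normal chow (control), chow with 0.1% Wy14,643 (Wy) or chow with 0.5% fenofibrate. Each library held RNA from a pool of 3 to 5 livers, so the spread between libraries is a spread between pools. The labels used here give neither the sex of the mice nor how the 2 strains segregated within the mixed background.

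PPARA is a nuclear receptor that pairs with RXR, is switched on by fatty acids and by drugs such as Wy14,643 and fenofibrate, and in liver turns on genes of fatty acid oxidation. Gm, LOC and Rik names are given to transcripts from gene prediction or cDNA sequencing before a function is known. They cover long noncoding RNAs, pseudogenes, antisense transcripts of named genes and also protein-coding genes that later received a proper name.

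The promoters of 4 of the named loci are shown first, because PPARA and RXR bind direct repeats of a half-site with a single base between the copies. The motif searched was the half-site AGGTCA, then any single base, then AGGTCA again, on both strands, with up to 2 mismatches in its 12 fixed letters. Each window is RefSeq's, 300 bases from 250 before to 50 after a transcript start, written 5′ to 3′ on the strand of the gene with the matched letters in capitals. The windows are chr7:14438502-14438801 (minus strand) for 2810007J24Rik, now Sult2a8, and chr9:15301558-15301857 (minus strand) for 4931406C07Rik, both at an inner start. They are chr10:128970947-128971246 (plus strand) for 9030616G12Rik and chr8:10928408-10928707 (minus strand) for 3930402G23Rik, where the best match had 4 mismatches and nothing is in capitals. All 4 sets of coordinates are on GRCm38.p6. In the other start windows of 2810007J24Rik and 4931406C07Rik the best match had 4 mismatches. Most windows of the named loci held no match with up to 2 mismatches, so the printed ones are not typical of them.
2810007J24Rik: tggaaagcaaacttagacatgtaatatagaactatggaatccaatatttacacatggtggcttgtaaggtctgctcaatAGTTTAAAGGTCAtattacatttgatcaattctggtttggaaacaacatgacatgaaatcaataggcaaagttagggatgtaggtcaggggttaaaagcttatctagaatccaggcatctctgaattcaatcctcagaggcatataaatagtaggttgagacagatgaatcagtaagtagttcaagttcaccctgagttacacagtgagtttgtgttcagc
4931406C07Rik: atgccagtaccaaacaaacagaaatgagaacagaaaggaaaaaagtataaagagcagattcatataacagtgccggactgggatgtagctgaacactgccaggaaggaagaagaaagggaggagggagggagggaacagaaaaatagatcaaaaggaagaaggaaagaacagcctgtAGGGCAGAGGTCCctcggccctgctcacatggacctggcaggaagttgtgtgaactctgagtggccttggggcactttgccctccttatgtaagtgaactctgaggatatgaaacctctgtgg
9030616G12Rik: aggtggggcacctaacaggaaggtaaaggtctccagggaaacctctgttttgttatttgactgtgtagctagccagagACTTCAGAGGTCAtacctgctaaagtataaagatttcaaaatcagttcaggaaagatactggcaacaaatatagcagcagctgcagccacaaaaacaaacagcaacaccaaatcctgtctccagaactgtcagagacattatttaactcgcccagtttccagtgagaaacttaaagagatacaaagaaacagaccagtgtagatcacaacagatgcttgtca
3930402G23Rik: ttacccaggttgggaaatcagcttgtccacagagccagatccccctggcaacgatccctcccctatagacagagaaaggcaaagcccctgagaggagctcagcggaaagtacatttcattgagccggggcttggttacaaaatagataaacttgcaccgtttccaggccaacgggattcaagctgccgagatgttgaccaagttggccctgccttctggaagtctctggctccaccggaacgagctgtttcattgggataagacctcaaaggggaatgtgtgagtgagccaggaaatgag

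Among RefSeq promoters of the tested loci, 32 of 870 (3.68%) held a match, against 1268 of all 32851 promoters in the table (3.86%). Split by the response of WT liver to Wy, a match stood in 8 of 143 promoters (5.59%) of loci called higher, 6 of 150 (4%) of loci called lower and 18 of 577 (3.12%) of loci not called. These counts describe letters in a window and were not tested.

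The libraries held 68.9 to 150.7 M counts on loci with an ID, of which the Gm, LOC and Rik loci took 3.47 to 5.46%. Major urinary protein (Mup) loci, which encode abundant secreted pheromone carriers, took 48.8 to 76.6%. Both shares include LOC100048884, now Mup18, and Gm21320, now Mup22. With 69469010 counts over all libraries, LOC100048884 alone made up most of the counts of the Gm, LOC and Rik loci. Ppara itself, on chromosome 15, stood at 59 ± 7.88 CPM (counts scaled to a common library size; mean ± SD, n = 3 here and below) in WT control and 15.2 ± 2.61 in KO control liver, a log2 difference of -1.96 ± 0.19 (SE; adjusted p = 7.3e-07). Counts on the locus in KO liver ranged from 1134 to 2328 a library; which exons they fall on was not analysed here. The RNA Xist, made from the inactive X chromosome, had 1 to 7 counts in 17 libraries and 321 in WT Wy 3. Summed CPM of 6 hepatocyte markers was 45300 to 47100 in WT control, 20800 to 24700 in WT Wy and 19500 to 20500 in WT fenofibrate libraries, and all 6 were called lower on both diets. Of 5 Kupffer cell markers tested, all 5 were also called lower on both diets, with summed CPM of 55.6 to 58.3, 32.4 to 34 and 32.3 to 40.8. Of 5 endothelium markers, 1 was called higher and 1 lower on each diet, and of 4 stellate cell markers 1 was called lower on each. Of all loci tested, 19% were called lower with Wy and 17.6% with fenofibrate. The size of the marker changes depends on the scaling of the libraries (TMM). With library totals instead, the median log2 change of all loci was 0.79 with Wy and 0.82 with fenofibrate. In bulk liver, fewer cells of a type and less RNA per cell cannot be told apart. The part of the marker shifts in the results below was not tested.

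Most of the loci gave no signal. All 18 libraries were at 0 counts for 6415 of the 9817 loci (65.3%), against 5007 of the 21282 loci with other symbols (23.5%). Of the 3402 with counts, 1335 (13.6% of all 9817) passed the filter on low counts and were tested, against 12906 (60.6%) of the others. The tested loci were 440 Gm, 115 LOC and 780 Rik loci. By RefSeq and GENCODE M21 they were 451 coding genes, 571 noncoding RNAs and 131 pseudogenes, with 182 not annotated.

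Detection differed with position. By Start and End, 3787 of the loci shared at least 1 base with a protein-coding locus, 2283 of them on the opposite strand and 1581 on the same strand, some on both. Only coding loci that were not themselves Gm, LOC or Rik loci were searched, and overlap with a coding locus has this sense below. With coding Gm, LOC and Rik loci included, 4088 overlapped. Where the locus lay wholly inside the coding locus, 2507 of 2549 (98.4%) were at 0 in every library. Where it overlapped without lying inside, 255 of 1238 (20.6%) were at 0, and where it overlapped no coding locus 3653 of 6030 (60.6%) were. Inside a coding locus the share at 0 was 97.1% on the opposite strand and 99.3% on the same strand. A count of 0 for such a locus therefore cannot be read as absence of the transcript.

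The same held in the other direction. Within the span of 43 tested loci lay 59 coding loci, of which 49 were at 0 in all libraries. Txnip, which encodes thioredoxin-interacting protein, lay inside Gm15441. Lipe, the hormone-sensitive lipase, and Ceacam1 lay inside 4732471J01Rik, and Acp5 inside 6530413G14Rik. Each of these 4 genes had 0 counts. Reads of the inner gene may therefore be counted on the outer locus or on neither, and which of these happened was not tested.

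**Figure D1:**
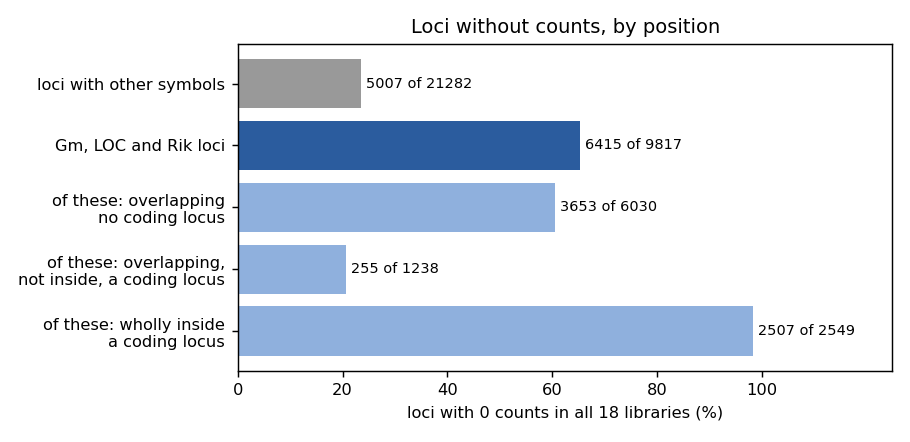
Share of loci with 0 counts in all 18 libraries (horizontal axis, percent), for loci with other symbols, for the Gm, LOC and Rik loci and for the latter split by their position against coding loci. The bar for loci wholly inside a coding locus reaches 98.4%, against 20.6% for loci that overlap without lying inside.

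Levels were low. The median over tested loci in WT control was 0.352 CPM, against 3.04 over all 14241 tested loci, and per kilobase of exon 0.163 against 0.577 CPM per kb. Over the 6 groups the median stayed between 0.345 and 0.371 CPM. At least 1 CPM was reached by 421 of the 1335 loci in WT control, at least 10 by 78 and at least 100 by 6, and the last count was 11 in each WT agonist group. Per kilobase the highest was LOC100048884, now Mup18, with 45500 ± 10100 CPM per kb in WT control. Gm21320, now Mup22, followed with 6230 ± 3550 and Gm10252, opposite the ferritin light chain gene Ftl1, with 586 ± 28.3. Sult2a8 (2810007J24Rik), a liver sulfotransferase of bile acids, stood at 120 ± 3.36 CPM per kb. The transferrin-like inhibitor of carbonic anhydrase 1300017J02Rik stood at 88 ± 1.98 CPM per kb. Mup18 and Mup22 are 99.2% and 99.4% identical over their length to other Mup transcripts, so how counts divide among these copies is uncertain.

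Both agonists moved a large group of these loci in WT liver. Changes were tested with edgeR's quasi-likelihood F-test, with Benjamini-Hochberg adjustment over all 14241 loci and a threshold of 0.05. With Wy, 412 of 1335 loci (30.9%) passed, 232 higher and 180 lower, where 39.2% of all loci passed (20.2% higher and 19% lower). With fenofibrate, 375 (28.1%) passed, 223 higher and 152 lower, where 36.9% of all loci passed (19.3% higher and 17.6% lower). Both comparisons share the WT control libraries. The median log2 change over the loci was 0.04 with Wy and 0.09 with fenofibrate, beside -0.02 and 0.01 over all loci. Changes of at least 2-fold were found for 115 higher and 81 lower loci with Wy and for 128 and 68 with fenofibrate. Over all 14241 loci these counts were 899 and 844 with Wy and 879 and 724 with fenofibrate. Of 26 known PPARA target genes, 26 were higher with Wy and 25 with fenofibrate in WT liver, and in KO liver none with Wy and 2 with fenofibrate.

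By kind, 68 of 451 coding loci were higher and 68 lower with Wy, as were 102 and 86 of 571 noncoding RNAs, 22 and 9 of 131 pseudogenes and 40 and 17 of 182 loci not annotated. With fenofibrate the same 4 kinds gave 67 and 58, 108 and 71, 13 and 7, and 35 and 16. Called either way with Wy were 30.2%, 32.9%, 23.7% and 31.3% of the 4 kinds, beside 39.2% of all loci. With fenofibrate these shares were 27.7%, 31.3%, 15.3% and 28%, beside 36.9% of all loci. The directions of the calls are relative to TMM scaling. With library totals, which give the Mup loci their full weight, the median of all loci shifted by 0.79 with Wy and 0.82 with fenofibrate, and the calls became 764 higher and 38 lower, and 815 higher and 33 lower.

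**Figure D2:**
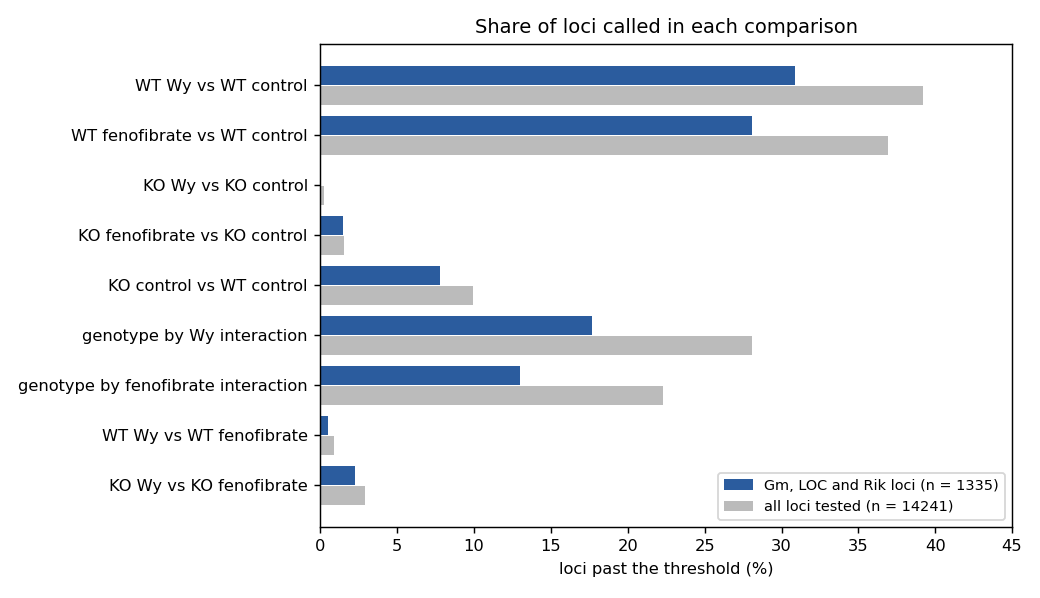
Share of tested loci past the threshold (horizontal axis, percent) in each of 9 comparisons, for the 1335 Gm, LOC and Rik loci (blue) and for all 14241 loci tested (grey). The largest shares are 30.9% and 39.2% for Wy in WT liver, and the smallest are 0 and 0.239% for Wy in KO liver.

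Among noncoding RNAs that rose was Gm15441 (chromosome 3, 96555768 to 96566801, minus strand, mm10), known as a long noncoding RNA antisense to Txnip. Its level was 3.21, 3.55 and 3.6 CPM in the WT control libraries, 159, 145 and 139 with Wy and 183, 158 and 173 with fenofibrate. In KO liver it was 1.47, 1.24 and 1.5 CPM on chow, 1.81, 1.91 and 1.68 with Wy and 1.61, 1.52 and 2 with fenofibrate. The 6 WT agonist libraries lay far above every other library, and every KO library lay below every WT control library. The log2 change in WT liver was 5.42 ± 0.12 with Wy (SE; adjusted p = 9e-16) and 5.63 ± 0.12 with fenofibrate (adjusted p = 6.5e-16). In KO liver it was 0.36 ± 0.12 (adjusted p = 0.18) and 0.29 ± 0.12 (adjusted p = 0.22). Its annotated exons share 606 bases (36.2% of its length) with exons of Txnip, which had 0 counts in all libraries, so reads of Txnip and of Gm15441 cannot be told apart.

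3930402G23Rik, a noncoding RNA on chromosome 8 with no coding neighbour in its span, went from near absence to a low level. The WT control libraries had 0.0743, 0.0103 and 0 CPM, the Wy libraries 2.28, 2.52 and 2.33 and the fenofibrate libraries 1.72, 1.63 and 1.48. All 9 KO libraries stood between 0.0206 and 0.142 CPM, and neither diet passed the test there. The log2 change was 6.22 ± 0.47 with Wy (adjusted p = 6.1e-09) and 5.66 ± 0.48 with fenofibrate (adjusted p = 3.3e-08), and 8.48 and 7.92 without WT control 1. The noncoding RNA 4833411C07Rik, which lies nearby on the plus strand from position 10899922, rose by 0.65 ± 0.16 with Wy (adjusted p = 0.0034) and 0.79 ± 0.16 with fenofibrate (adjusted p = 0.00066).

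4732463B04Rik runs opposite Acot4, which encodes a peroxisomal acyl-CoA thioesterase. It had 1.94, 2.22 and 2.16 CPM in WT control, 40.8, 42.9 and 37.6 with Wy and 38.4, 39.3 and 56.5 with fenofibrate. The KO libraries stayed between 2.2 and 3.45 CPM on all 3 diets. It rose by 4.26 ± 0.14 with Wy (adjusted p = 6.1e-14) and 4.41 ± 0.14 with fenofibrate (adjusted p = 6e-14), where Acot4 rose by 3.61 ± 0.11 and 3.62 ± 0.11. A330041J22Rik, opposite the start of the malic enzyme gene Me1, rose by 2.87 ± 0.36 (adjusted p = 4.8e-06) and 2.80 ± 0.36 (adjusted p = 6.7e-06), as Me1 did with 2.87 ± 0.17 and 2.67 ± 0.17.

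Other noncoding or unannotated loci rose without a coding overlap. 1300002E11Rik went from 1.72, 1.27 and 1.47 CPM to 7.91, 8.85 and 7.34 with Wy and 9.09, 7.84 and 7.61 with fenofibrate, with KO libraries between 1.65 and 2.15. Its log2 changes were 2.43 ± 0.12 (adjusted p = 2e-11) and 2.46 ± 0.12 (adjusted p = 2.4e-11). B230114P17Rik rose by 2.69 ± 0.19 and 2.39 ± 0.19 (adjusted p = 2.6e-09 and 1.5e-08), and 9030616G12Rik, whose promoter is printed above, by 1.29 ± 0.21 and 1.10 ± 0.21 (adjusted p = 7.1e-05 and 0.00037). 9430037G07Rik rose by 3.26 ± 0.34 and 3.67 ± 0.34 (adjusted p = 4.3e-07 and 9.4e-08), and by 4.04 and 4.45 without WT control 1.

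7330403C04Rik, a single-exon locus opposite the heat shock gene Hspa1b, rose less evenly. It had 5.88, 8.2 and 6.83 CPM in WT control, 51.2, 51.4 and 58.7 with Wy, and 9.07, 49.8 and 59.1 with fenofibrate. One fenofibrate library thus stood near the controls while the other two stood near the Wy libraries. The changes were 2.95 ± 0.58 (adjusted p = 0.00048) and 2.50 ± 0.57 (adjusted p = 0.0019), beside 2.91 ± 0.56 and 2.40 ± 0.55 for Hspa1b, which also stood at 17.1 CPM in that library against 85.9 and 104.

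The deepest fall was that of Gm4956, a pseudogene by RefSeq on chromosome 1. It had 7.14, 4.55 and 6.08 CPM in WT control, 0.11, 0.0961 and 0.122 with Wy and 0.433, 0.168 and 0.309 with fenofibrate. The 9 KO libraries lay between 3.09 and 7.1 CPM, all above the WT agonist libraries. The log2 change was -5.74 ± 0.30 with Wy (adjusted p = 2.9e-11) and -4.26 ± 0.26 with fenofibrate (adjusted p = 3.2e-10).

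LOC102633856, a noncoding RNA now called Gm31583, had 26.8, 20.5 and 25.7 CPM in WT control, 0.916, 0.442 and 0.986 with Wy and 1.81, 1.9 and 1.35 with fenofibrate. In KO liver it stayed between 10.9 and 23.9 CPM, and the WT agonist libraries lay below every other library. It fell by 4.95 ± 0.25 (adjusted p = 2.5e-11) and by 3.85 ± 0.24 (adjusted p = 3.5e-10) on the log2 scale. Gm12718, a noncoding RNA on chromosome 4, fell by 4.49 ± 0.40 and 4.27 ± 0.39 (adjusted p = 4.9e-08 and 8.9e-08), and by 4.90 with fenofibrate without WT fenofibrate 3.

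1500017E21Rik is now Hectd2os, named for its place opposite the ubiquitin ligase gene Hectd2. It had 23.2, 28.6 and 27.5 CPM in WT control, 3.45, 3.12 and 3.58 with Wy and 3.7, 4.02 and 4.46 with fenofibrate, with no overlap between control and agonist. KO control libraries stood between the WT groups at 15.7, 13.7 and 10.8 CPM. The log2 changes in WT liver were -2.96 ± 0.25 and -2.70 ± 0.25 (adjusted p = 2.3e-08 and 7.7e-08), where Hectd2 changed by -2.89 ± 0.25 and -2.62 ± 0.25. Gm16548, opposite the P-selectin gene Selp, fell by 1.35 ± 0.15 with Wy and by 1.70 ± 0.15 with fenofibrate (adjusted p = 6.1e-07 and 4.9e-08).

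Several falling loci have a near-identical copy among coding genes, so that reads may be shared. Gm4788, a coding locus on chromosome 1, had 122, 132 and 121 CPM in WT control. It had 17, 16.8 and 16.6 with Wy and 28.8, 22.5 and 28 with fenofibrate, while KO libraries ranged from 75.3 to 133. It fell by 2.90 ± 0.11 (adjusted p = 5e-13) and by 2.24 ± 0.11 (adjusted p = 1.4e-11). Gm5424, a pseudogene 99.5% identical to the urea cycle gene Ass1, fell by 2.28 ± 0.11 and 2.09 ± 0.11 (adjusted p = 1.7e-11 and 5.9e-11), where Ass1 fell by 2.31 ± 0.12 and 2.11 ± 0.12. Gm10681, a coding locus 100% identical to the steroid dehydrogenase gene Hsd3b4, fell by 4.80 ± 0.49 and 5.53 ± 0.54 (adjusted p = 3.2e-07 and 1.9e-07), the latter by 6.54 without WT fenofibrate 1. The values of these 3 loci are therefore uncertain.

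The coding loci that rose included Gm4952, which encodes a protein of the glycine N-acyltransferase family. It had 26.9, 31.9 and 31.7 CPM in WT control, 117, 122 and 117 with Wy and 136, 118 and 126 with fenofibrate. KO libraries lay between 8.59 and 21.3 CPM, all below WT control. It rose by 1.97 ± 0.16 (adjusted p = 1.1e-08) and 2.07 ± 0.16 (adjusted p = 6.8e-09) in WT liver. 2010003K11Rik rose by 1.65 ± 0.19 and 2.30 ± 0.19 (adjusted p = 1.2e-06 and 1.9e-08).

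4931406C07Rik, a coding gene on chromosome 9 whose promoter is printed above, had 55.6, 63.5 and 57.8 CPM in WT control, 156, 168 and 155 with Wy and 183 in each fenofibrate library. In KO liver it had 53.2, 53.3 and 55.5 CPM on chow, 54.2, 58.4 and 54.8 with Wy, and 126, 103 and 111 with fenofibrate. The KO fenofibrate libraries thus lay above all control libraries and below all WT agonist libraries. Log2 changes were 1.44 ± 0.08 (adjusted p = 9.2e-11) and 1.63 ± 0.08 (adjusted p = 2.4e-11) in WT, and 0.05 ± 0.08 (adjusted p = 0.82) and 1.07 ± 0.08 (adjusted p = 5.7e-07) in KO liver.

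Among abundant coding loci that fell, Sult2a8 (2810007J24Rik) had 306, 292 and 306 CPM in WT control, 123, 120 and 142 with Wy and 150, 117 and 135 with fenofibrate. Its changes were -1.23 ± 0.10 (adjusted p = 1.7e-08) and -1.17 ± 0.10 (adjusted p = 3.8e-08). 1300017J02Rik had 348, 339 and 354 CPM in WT control, 155, 151 and 174 with Wy and 136, 136 and 145 with fenofibrate, and fell by 1.12 ± 0.08 and 1.32 ± 0.08 (adjusted p = 4.1e-09 and 5.1e-10). Neither locus had overlapping groups between control and agonist. LOC100048884 (Mup18) fell by 1.18 ± 0.22 with Wy and by 1.19 ± 0.22 with fenofibrate (adjusted p = 0.00029 and 0.00027). Gm21320 (Mup22) fell by 1.93 ± 0.69 and 2.10 ± 0.70 (adjusted p = 0.034 and 0.024). The fenofibrate call on Mup22 was lost without WT control 1 (-1.57, adjusted p = 0.11), without WT fenofibrate 1 (-1.89, adjusted p = 0.087), without WT fenofibrate 2 (-1.86, adjusted p = 0.09) and with library totals (-1.22, adjusted p = 0.082).

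**Figure D3:**
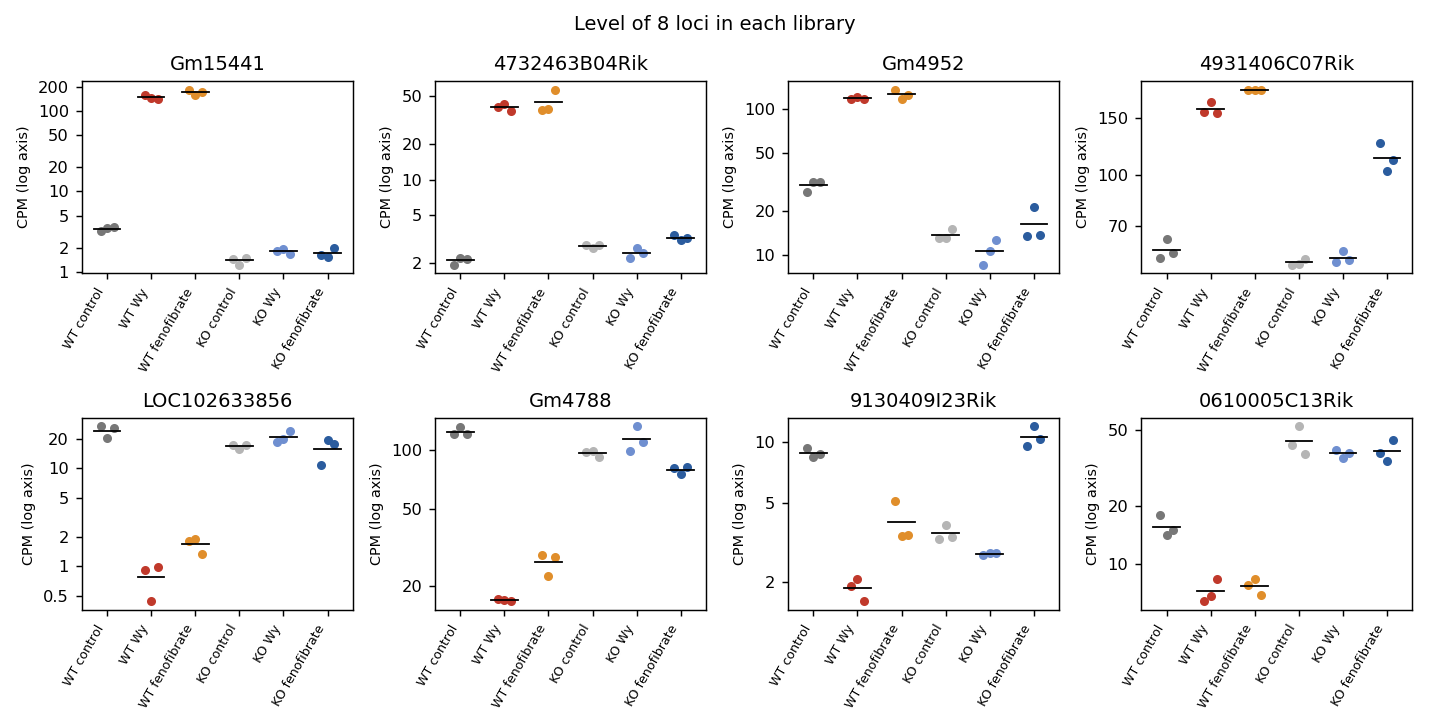
Level of 8 loci in each of the 18 libraries (vertical log axis, CPM; horizontal axis, the 6 groups; points are libraries and lines are group means). Gm15441, 4732463B04Rik and Gm4952 are raised in WT agonist groups alone, and 4931406C07Rik is also raised in KO fenofibrate, at 126, 103 and 111 CPM.

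In KO liver Wy moved none of the loci past the threshold by edgeR, where 0.239% of all loci passed (0.133% higher and 0.105% lower). At an unadjusted p under 0.05 there were 143 of 1335, beside 1998 of all 14241 loci. DESeq2's Wald test called 13 of the 1335. The edgeR count past the threshold was 1 without WT fenofibrate 1, and 4, 3 and 9 without KO fenofibrate 1, 2 and 3. Of the 232 loci higher with Wy in WT liver, 124 (53.4%) had a called genotype by Wy interaction against that direction, as had 85 of the 180 lower ones (47.2%). Over all loci tested these shares were 64.1% and 64%. The interaction itself was called for 236 loci (17.7%), where 28.1% of all loci passed. Loci past the threshold in WT and not in KO, without a called interaction, are not shown to differ between the genotypes.

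Fenofibrate moved 20 loci in KO liver (1.5%), 12 higher and 8 lower, where 1.54% of all loci passed (0.997% higher and 0.548% lower). Of the 12 higher, 8 were also called higher in WT liver, which is 66.7% of the KO calls and 3.59% of the 223 WT calls. Of the 8 lower, 7 were also called lower in WT liver, which is 87.5% of the KO calls and 4.61% of the 152 WT calls. Over all loci tested, the shares of the KO calls were 40.1% for higher and 82.1% for lower ones. Those of the WT calls were 2.07% and 2.55%. The genotype by fenofibrate interaction was called for 173 loci (13%), where 22.3% of all loci passed. The count of 20 was 3 without KO control 1, 2 without KO control 2, 8 without KO control 3 and 39 without KO fenofibrate 2. It was also 12 without any of WT control 1, 2 or 3 or WT fenofibrate 3, and 13 without any of WT Wy 1 or 3, KO Wy 1 or KO fenofibrate 3.

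**Figure D4:**
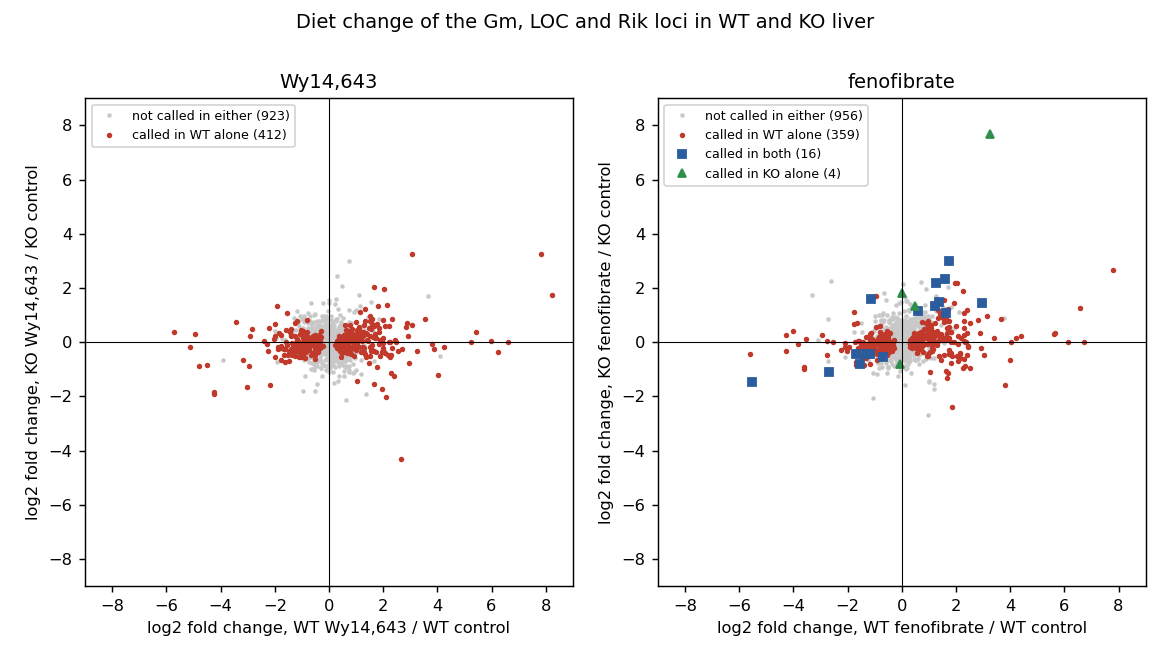
Log2 fold change of each of 1335 loci in WT liver (horizontal axis) and in KO liver (vertical axis), with Wy on the left and fenofibrate on the right. Points called in WT alone (412 and 359) lie along the horizontal axis, and 16 loci are called in both genotypes with fenofibrate and none with Wy.

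The clearest KO response besides 4931406C07Rik was that of 9130409I23Rik, a coding gene on chromosome 1. It had 9.41, 8.41 and 8.71 CPM in WT control, 1.92, 2.07 and 1.61 with Wy and 5.12, 3.42 and 3.43 with fenofibrate. In KO liver it had 3.31, 3.87 and 3.36 CPM on chow, 2.75, 2.8 and 2.8 with Wy and 9.61, 12 and 10.4 with fenofibrate. Fenofibrate therefore went with lower levels in WT liver (-1.15 ± 0.14, adjusted p = 2.9e-06) and with higher levels in KO liver (1.60 ± 0.14, adjusted p = 2.5e-06). The interaction was 2.75 ± 0.20 (adjusted p = 1.1e-08). With library totals the WT fenofibrate change was -0.36 (adjusted p = 0.06).

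Most of the other named KO fenofibrate calls were lost in at least 1 of the fits that left out a single library. D730001M18Rik, not annotated, had 2.4, 2.37 and 2.52 CPM in KO control and 11.3, 4.36 and 17.5 with fenofibrate. Its change was 2.18 ± 0.39 (adjusted p = 0.0086), with an adjusted p of 0.054 without KO control 1 and 0.058 without KO control 2. A130040M12Rik changed by 1.32 ± 0.27 (adjusted p = 0.019), and by 0.93 without KO fenofibrate 3 (adjusted p = 0.076). 9430008C03Rik, now the snoRNA host gene Snhg17, changed by 1.16 ± 0.22 (adjusted p = 0.014), with an adjusted p of 0.091 without KO control 2.

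Among the falls, 1500017E21Rik (Hectd2os) changed by -1.09 ± 0.23 in KO liver with fenofibrate (adjusted p = 0.024), 1300017J02Rik by -0.42 ± 0.08 (adjusted p = 0.015) and LOC102632430, opposite the chaperone gene Dnajb11, by -0.42 ± 0.10 (adjusted p = 0.037). Without KO control 2 their adjusted p was 0.095, 0.1 and 0.2. With the replicate number as a block, 14 of the loci were called in place of 20, and 4 of the named ones lost their call: Gm10681 at -1.40 (adjusted p = 0.057), 9130221J18Rik at -0.80 (adjusted p = 0.061), 7530414M10Rik_locus1 at -0.55 (adjusted p = 0.073) and 2810007J24Rik at -0.41 (adjusted p = 0.066).

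On chow, KO and WT liver differed in 104 loci (7.79%), 42 higher and 62 lower in KO, where 9.94% of all loci passed (4.28% higher and 5.66% lower). Differences of at least 2-fold were 31 higher and 33 lower, where all 14241 loci gave 228 and 281. This comparison shares its control libraries with the diet comparisons above. Of the 26 PPARA targets, 1 was higher and 23 were lower in KO control liver.

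Several loci were close to present in one genotype and absent in the other. Gm3579_locus2, not annotated, had 0.121, 0.318 and 0.0811 CPM in WT control and 26.5, 23 and 23.4 in KO control, that is 51 and 7399 counts, a ratio of CPM of 139 (95% exact counting interval 106 to 187). Its fitted log2 difference was 7.11 ± 0.49 (adjusted p = 1.2e-08), and 7.87 without WT control 2. 2610507I01Rik, a noncoding RNA on chromosome 11, had 3 and 507 counts, a ratio of 162 (55.2 to 789). Its fitted log2 difference of 7.18 ± 0.50 (adjusted p = 1.4e-08) was 6.57 without WT control 1 and 8.10 without WT control 3. LOC101056219, now Urml, had no count in any of the 9 WT libraries and 27, 55 and 45 counts in KO control, at least 41.3-fold higher against a floor of 3 counts over the WT control group. In the other direction, 1700080G11Rik had 0 counts in KO control and 61 in WT control, at least 21.5-fold higher in WT against a floor of 3 counts over the KO control group. These intervals and floors cover counting error only. None of these 4 loci shares a chromosome with Ppara.

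Within 10 Mb of Ppara, 2 of 21 tested loci were called between genotypes (9.52%), against 102 of 1314 elsewhere (7.76%). Whether differences between genotypes come from the deletion or from C57BL/6 and SV129 alleles carried along with it cannot be told apart here.

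0610005C13Rik, a noncoding RNA opposite Bcat2, the mitochondrial branched-chain aminotransferase gene, had 18, 14.1 and 15 CPM in WT control and 41.7, 52.1 and 37.4 in KO control, without overlap. The difference was 1.48 ± 0.14 (adjusted p = 4.7e-07), while Bcat2 differed by 0.19 ± 0.16 (adjusted p = 0.59). In WT liver it had 6.41, 6.86 and 8.35 CPM with Wy and 7.79, 8.35 and 6.93 with fenofibrate, changes of -1.13 ± 0.14 (adjusted p = 2.6e-06) and -1.03 ± 0.14 (adjusted p = 7.8e-06). With library totals those changes were -0.31 (adjusted p = 0.11) and -0.22 (adjusted p = 0.24). The ratio of its counts to those of Bcat2 was little changed by diet in WT liver. Its group mean was 3.51 in WT control, 3.45 with Wy and 3.24 with fenofibrate, beside 9.09 in KO control.

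Gm4070, a coding locus 100% identical to the interferon-inducible GTPase gene Gvin1, was 2.37 ± 0.24 higher in KO control (adjusted p = 1.5e-06). Gvin1_locus2 was 2.48 ± 0.25 higher (adjusted p = 1.2e-06). Gm10029, a pseudogene 97.9% identical to the ribosomal protein gene Rpl35a, was 1.87 ± 0.17 higher (adjusted p = 3.2e-07). Rpl35a_locus1 differed by -0.24 ± 0.14 (adjusted p = 0.36). Gm15441 was lower in KO control at -1.30 ± 0.11 (adjusted p = 2.2e-07), Gm4952 lower at -1.13 ± 0.15 (adjusted p = 5.2e-05) and 9130409I23Rik lower at -1.33 ± 0.14 (adjusted p = 2.4e-06). 4930452B06Rik, now Cfap20dc, had 1.72, 1.78 and 1.87 CPM in WT control and 0.293, 0.247 and 0.0721 in KO control, a difference of -3.11 ± 0.28 (adjusted p = 4.1e-07).

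The 2 agonists gave different levels at few of the loci. In WT liver, Wy and fenofibrate differed in 7 loci (0.524%), 1 higher and 6 lower with Wy, where 0.899% of all loci passed (0.323% higher and 0.576% lower). That count was 4, 3 and 3 without WT Wy 1, 2 and 3, 4 without WT fenofibrate 2, and 11 and 14 without KO fenofibrate 1 and 3. In KO liver they differed in 30 (2.25%), 13 higher and 17 lower with Wy, where 2.89% of all loci passed (1.3% higher and 1.59% lower). That count was 15 and 17 without KO Wy 1 and 2, 18 without WT control 3 and 19 without WT Wy 3. The compounds were fed at different doses (0.1% and 0.5% of chow), so these are differences between diets. A count of 7 does not show that the other loci respond alike.

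Gm10639, a coding locus 98.3% identical to the glutathione transferase gene Gsta2, had 5.7, 5.66 and 5.61 CPM in WT control, 1.63, 2.4 and 1.3 with Wy and 7.15, 8.07 and 5.26 with fenofibrate. It was lower with Wy than with fenofibrate in WT (-1.95 ± 0.21, adjusted p = 3.9e-05) and in KO liver (-1.25 ± 0.20, adjusted p = 0.0022). Gsta2 itself differed by -1.57 ± 0.16 in WT (adjusted p = 1.4e-05) and by -0.70 ± 0.15 in KO liver (adjusted p = 0.018). 9130409I23Rik differed likewise, by -1.10 ± 0.14 in WT (adjusted p = 0.00042) and -1.94 ± 0.14 in KO liver (adjusted p = 1.9e-07). Gm4788 was lower with Wy in WT liver (-0.65 ± 0.10, adjusted p = 0.0034) and higher with Wy in KO liver (0.52 ± 0.10, adjusted p = 0.0091). With library totals the WT difference of Gm4788 had an adjusted p of 0.1. 4931406C07Rik differed in KO liver (-1.02 ± 0.08, adjusted p = 3.4e-07), and in WT by -0.20 ± 0.08 (adjusted p = 0.31).

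Of the 1335 tested loci, 558 overlapped a coding locus, and 601 did with coding Gm, LOC and Rik loci included. With Wy in WT liver 112 of the 558 were higher and 70 lower (32.6%), against 120 and 110 of the other 777 (29.6%). For 35 of the 558 the coding partner was at 0 counts, and for 503 the partner was tested too, 468 of them on the opposite strand. Among the 503 pairs, the locus was called with Wy in 160 and the partner in 200, where 39.2% of all loci passed. Both were called in 101, in the same direction in 94 and in opposite directions in 7. With fenofibrate the locus was called in 147 and the partner in 192, where 36.9% of all loci passed. Both were called in 98, in the same direction in 91. Whether these joint counts exceed what the separate counts would give was not tested. Across the 503 pairs Pearson's r of the log2 changes was 0.653 with Wy and 0.632 with fenofibrate, a description over pairs that come from the same libraries and share genomic sequence.

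The libraries were made with a kit that keeps strand, but the sources used here do not say whether strand was used in counting, so reads from a locus and its antisense partner cannot be told apart. The ratio of the locus to its partner varied little for some pairs. 7330403C04Rik over Hspa1b ranged from 0.462 to 0.596 in the 18 libraries, over a range of 2.65 to 59.1 CPM of the locus. 9430064I24Rik over Hsd3b7, a bile acid synthesis gene, ranged from 0.483 to 0.571, and 1500017E21Rik over Hectd2 from 1.18 to 1.48. Gm10252 over Ftl1_locus2 ranged from 0.277 to 0.326 and Gm10680_locus2 over Apoa4, an apolipoprotein gene, from 0.269 to 0.299.

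Other pairs did not keep a fixed ratio. 4732463B04Rik over Acot4 had group ratios of 0.397 in WT control, 0.626 with Wy and 0.684 with fenofibrate, and 0.365 to 0.426 in KO liver. 0610005C13Rik over Bcat2 ranged from 3.02 to 12.5, and 4931406C07Rik over Taf1d from 23.3 to 88.2. Over the 304 pairs with at least 10 counts on both sides in every library, the highest ratio was a median of 2.08 times the lowest, and for 56 pairs it was under 1.5 times.

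**Figure D5:**
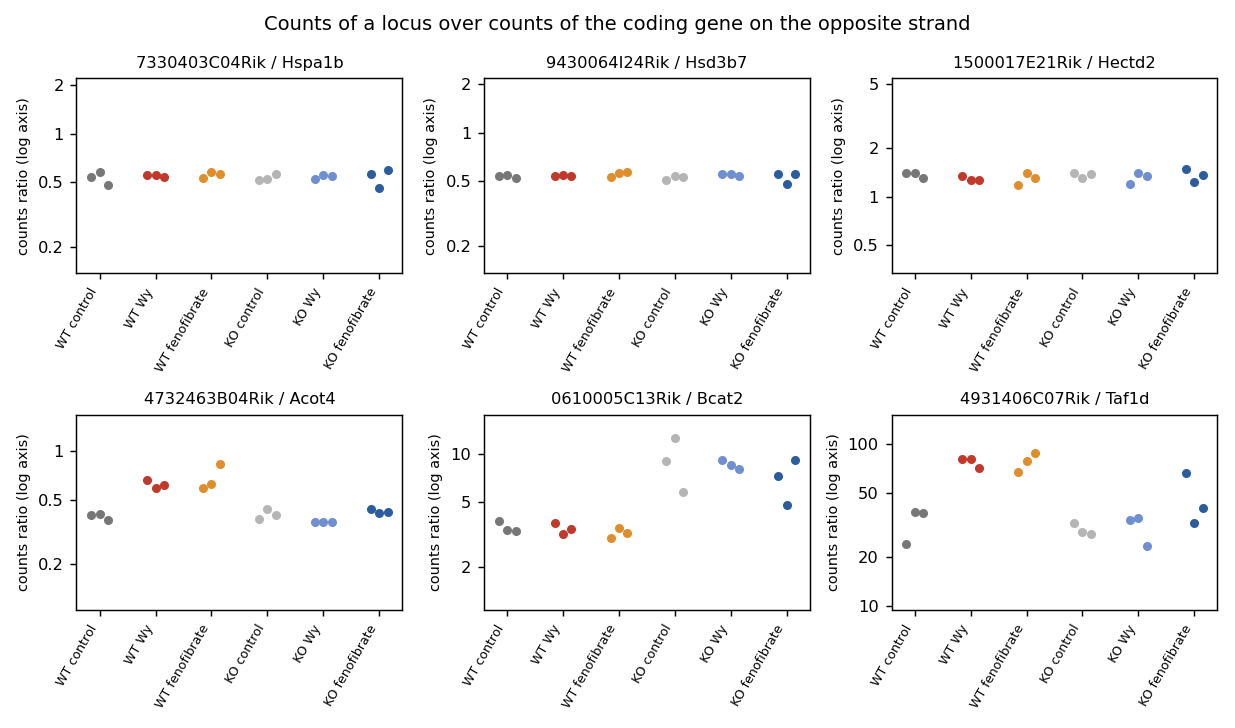
Counts of a locus divided by counts of the coding gene on the opposite strand (vertical log axis, ratio), one point a library, for 6 pairs across the 6 groups (horizontal axis). The upper 3 pairs keep a narrow ratio, such as 0.462 to 0.596 for 7330403C04Rik over Hspa1b, and the lower 3 do not.

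Near-identical copies limit part of the set. Of the 1071 tested loci with a reference transcript, 185 (17.3%) matched another coding gene at 90% identity or more over at least 50% of their length, among them 98 of 122 pseudogenes, 82 coding loci and 5 noncoding RNAs. In the 156 pairs where both were tested, 38 loci and 62 copies were called with Wy in WT liver, where 39.2% of all loci passed. Both were called in 29, all 29 in the same direction. With fenofibrate 23 loci and 49 copies were called, where 36.9% of all loci passed. Both were called in 18, all 18 in the same direction. Between genotypes 15 loci and 22 copies were called, where 9.94% of all loci passed. Both were called in 10, 8 of them in the same direction. Gm12070, a pseudogene 99.9% identical to Gapdh, the glycolysis gene, rose by 0.40 ± 0.08 with Wy (adjusted p = 0.00048), beside 0.38 for Gapdh_locus4.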

How the data were processed

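Read counts per locus for 18 mouse liver libraries were used as the authors deposited them, as whole-number counts per gene locus with mm10 coordinates per the file headers. Per the labels' protocols, libraries were made with TruSeq Stranded mRNA. Per the submitters' processing notes the tools were bcl2fastq 2.17, Trimmomatic 0.30, TopHat2 2.0.8 and Picard 1.84, on mm10. How reads were counted, with which strand option and with what rule for nested genes, is not given in the sources used here.

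Left out were 21364 loci without a gene ID (0.604 to 1.54% of counts a library), 12 blank or total lines in 6 files and 5 read columns of 1 file. Counts were filtered with filterByExpr over 6 groups, scaled by TMM and fitted on all 18 libraries with edgeR 4.0.16 (limma 3.58.1, R 4.3.3; common biological coefficient of variation 0.14, 12 residual degrees of freedom, prior count 0.125). Adjusted p is Benjamini-Hochberg over 14241 loci, and SE is the log2 change over the root of F. DESeq2 1.42.0 was an alternative. CPM uses TMM effective library sizes. Loci at the same symbol are numbered as locus1, locus2. RefSeq GRCm38.p6 tables gave later names and promoters, RefSeq and GENCODE M21 together the kinds, GENCODE M21 exons and blastn 2.17.0 copies, with Python 3.11.15. The fits were tested on simulated counts.

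Named loci were, for the diet and genotype comparisons, the 10 largest rises and falls among called loci whose libraries did not overlap and that reached 1 CPM, 5 each way elsewhere, the 10 highest in level and 11 tested loci listed by name; the text names a part of them. The lists were written with earlier results of these data known, while the rule for the loci used symbols and gene IDs alone. Libraries of the same number deviated together in all 3 pairs for WT Wy (r of 0.103 to 0.143), WT fenofibrate (0.109 to 0.439) and KO fenofibrate (0.143 to 0.19) against control, so the fit with the number as a block was treated as paired there. With 3 libraries against 3 an exact permutation test cannot go below p = 0.1, so none is reported. No 2 libraries of a group were duplicates. Some results on named genes are not reported here.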

Additional observations from a re-analysis of the deposited data

Results flagged for a closer look

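For 11 loci the response to an agonist differed between genotypes by the interaction test, with the largest differences among loci called there (the log2 change in KO minus that in WT). With Wy, Gm4956 differed by 6.13, LOC102633856 by 5.25, Gm10681 by 3.92, Gm12718 by 3.64 and Gm21320 by 3.25, all loci that fell in WT liver. The value of Gm21320 was 2.72 without WT control 1 and 2.98 without WT Wy 1, and lost its call in both cases (edgeR adjusted p = 0.052 each). Those that rose in WT liver were 3930402G23Rik at -6.57, Gm15441 at -5.06, 4732463B04Rik at -4.46, Gm9817 at -3.87 and 7330403C04Rik at -3.71. With fenofibrate, Gm12718 differed by 4.51, Gm10681 by 4.05, Gm4956 by 3.91, LOC102633856 by 3.77 and 9130409I23Rik by 2.75. The corresponding values were -5.34 for Gm15441, -5.33 for 3930402G23Rik, -4.18 for 4732463B04Rik, -3.45 for 7330403C04Rik and -3.27 for Gm9817. Gm9817, a coding locus on chromosome 13, had 0.111, 0.113 and 0.0695 CPM in WT control and 1.46, 1.21 and 1.58 with Wy.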

How the results depend on the processing

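With library totals the called counts, in order higher and lower, were 802 (764 and 38) for Wy and 848 (815 and 33) for fenofibrate in WT liver, 188 (3 and 185) and 10 (10 and 0) in KO liver and 167 (136 and 31) between genotypes. They were 774 (16 and 758) and 511 (21 and 490) for the Wy and fenofibrate interactions, and 4 (1 and 3) and 290 (2 and 288) for Wy against fenofibrate in WT and KO liver. The median of all loci moved by 0.79, 0.82, -0.33, 0.05, 0.32, -1.11, -0.73, -0.01 and -0.39 in these 9 comparisons. 2 values changed sign under library totals, 1810011O10Rik with fenofibrate in WT liver from -0.68 to 0.14 and the Wy interaction of 0610005C13Rik from 0.91 to -0.26. Without a filter Wy in KO liver gave 3. Fits on only the groups compared gave 4 for Wy and 2 for fenofibrate in KO liver, 11 for the agonists in WT and 3 in KO liver. DESeq2's Wald test gave 13, 37 and 17 for Wy and fenofibrate in KO liver and for the agonists in WT liver. Leaving out a library gave 322 to 439 and 300 to 408 for the WT diets, 0 to 9 and 2 to 39 for the KO diets, 75 to 126 between genotypes, 178 to 262 and 141 to 192 for the interactions, and 3 to 14 and 15 to 38 between agonists. With the replicate block the counts were 396, 376, 0, 14, 104, 220, 172, 6 and 23, in the order above. Beyond the calls given in the report, the block lost LOC102633856 between agonists in WT liver (adjusted p = 0.06), 9130221J18Rik and D630022N01Rik between agonists in KO liver (adjusted p = 0.053 each) and the fenofibrate interaction of 1810011O10Rik (adjusted p = 0.05). Counting same-strand overlap only left 1581 loci, and opposite-strand overlap only 2283. With at most 1 mismatch 0.69% of promoters held the motif. Among changes of named loci, 4570 values kept direction and side of the threshold, 223 lost the call, 28 gained it and 2 changed sign; the cause was not tested. Low counts limit precision: the median tested locus stood under 1 CPM in every group.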

Other observations

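Some of the loci have since been named, and 11 of these changed at least 2-fold with Wy in WT liver and reached a mean of 1 CPM there or in WT control; they were picked after their values were seen. 4930506M07Rik, now Shtn1, had 8.66, 8.52 and 8.6 CPM in WT control, 16.2, 20 and 15.6 with Wy and 17.9, 18.7 and 18.3 with fenofibrate, changes of 1.01 and 1.09 (adjusted p = 8e-08 and 3.2e-08). Gm9992, now Unc93a2, rose by 1.37 and 1.62 (adjusted p = 4.8e-06 and 6.4e-07). LOC102632980, now the noncoding RNA Lncbate6, rose by 2.32 and 2.02 (adjusted p = 2.8e-07 and 1.9e-06), and on chow KO liver had 1 count against 123 in WT liver, a CPM ratio of 0.0078 (95% exact counting interval 0.000196 to 0.0443). 3110052M02Rik, now the zinc finger gene Zfp983, fell by 1.39 and 1.13 on the log2 scale (adjusted p = 4.7e-06 and 4.6e-05). 6330416G13Rik, now Tmem268, fell by 1.45 and 0.86 (adjusted p = 1.4e-05 and 0.002), and A230050P20Rik, now the antiviral gene Shfl, by 1.00 and 0.51 (adjusted p = 2.7e-05 and 0.0095). 5830473C10Rik, now Albfm1, fell by 1.02 and 0.91 (adjusted p = 3.6e-06 and 1.4e-05). The other 4 were Hectd2os, Sult2a8, Mup18 and Mup22, given above. With Wy in KO liver none of the 11 passed the test, where 0.239% of all loci passed. The genotype by Wy interaction was called for all of them but Lncbate6 (adjusted p = 0.65) and Albfm1 (adjusted p = 0.063).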
